A study of Mus musculus with 7 samples.

Results

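Kupffer cells are the macrophages that live in the sinusoids of the liver. The genes described here are 10 of the 32285 genes counted in 7 single-cell RNA-seq libraries of mouse liver. They are the 3 chains of the complement component C1q (C1qa, C1qb and C1qc), and 7 genes used to recognise Kupffer cells: Clec4f, Vsig4, Timd4, Cd5l, Marco, Spic and Id3. The set is defined by name, but it was chosen with earlier results of these data known. All 10 genes were found in every library by symbol and by gene identifier.

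The study crossed mice that carry Cre under the albumin promoter, which is active in hepatocytes, with mice that carry a MYC transgene behind a stop cassette, on a C57BL/6J background. Hepatoblastoma-like liver tumors grow in mice with both alleles (ABC-Myc), and littermates that lacked 1 or both alleles served as healthy controls. The study's text describes the single-cell libraries as tumors and healthy livers and calls 4 of these, NEJ634, NEJ687, NEJ709 and NEJ723, tumors by name, so that NEJ638, NEJ654 and NEJ677 would by its count be the healthy livers. The labels, however, give all 7 libraries, NEJ638, NEJ654 and NEJ677 included, the same disease state, and give no genotype or age. No library was therefore assigned to a group, no tumor and healthy groups were compared, and each value below belongs to 1 library. The description of NEJ709 in the labels repeats the name NEJ634, but the totals of these libraries were different, at 83665373 and 132485391 UMIs.

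C1q is the recognition part of the classical complement pathway. It is built from A, B and C chains encoded by neighbouring genes, and in most tissues macrophages make it. CLEC4F, a C-type lectin that binds glycolipids, is restricted to Kupffer cells in the mouse. VSIG4 is a complement receptor for C3 fragments, TIMD4 binds phosphatidylserine on dying cells, and MARCO is a scavenger receptor for bacteria and particles. CD5L is a protein secreted by tissue macrophages, SPIC is an ETS transcription factor of iron-recycling macrophages, and ID3 is a helix-loop-helix inhibitor that Kupffer cells need for their identity. Monocytes that enter an emptied Kupffer cell niche acquire these genes one after another, and Timd4 is among the last of them.

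The C1q genes lie together on chromosome 4, where 18675 bases hold all 3 in the GENCODE M21 annotation of GRCm38: C1qb at chr4:136880129-136886187, C1qc at chr4:136889804-136893065 and C1qa at chr4:136895917-136898803, all on the minus strand. Clec4f lies on the minus strand at chr6:83644542-83656187 and Vsig4 on the minus strand at chrX:96247203-96293438. The bases just before these genes are shown because Clec4f and Vsig4 were far lower in 1 library, NEJ723, than in the others, while the C1q chains were not. The sequences are from RefSeq (GRCm38.p6), limited to bases outside the gene model, and are written 5′ to 3′ on the strand of the gene. Capitals mark GAGGAA, or its reverse complement TTCCTC, the core bound by ETS factors such as PU.1.
C1qb, chr4:136886201-136886450: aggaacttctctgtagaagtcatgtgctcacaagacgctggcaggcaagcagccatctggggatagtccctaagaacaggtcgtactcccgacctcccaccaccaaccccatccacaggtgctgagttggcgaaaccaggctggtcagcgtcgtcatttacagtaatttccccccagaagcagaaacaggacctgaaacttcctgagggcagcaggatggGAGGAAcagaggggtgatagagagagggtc
C1qc, chr4:136893066-136893164: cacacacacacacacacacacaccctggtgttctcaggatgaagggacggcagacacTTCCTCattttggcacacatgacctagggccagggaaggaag
Clec4f, chr6:83656188-83656366: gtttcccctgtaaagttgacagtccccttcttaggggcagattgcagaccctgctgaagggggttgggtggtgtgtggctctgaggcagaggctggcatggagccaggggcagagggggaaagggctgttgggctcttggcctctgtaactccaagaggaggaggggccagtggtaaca
Vsig4, chrX:96293439-96293688: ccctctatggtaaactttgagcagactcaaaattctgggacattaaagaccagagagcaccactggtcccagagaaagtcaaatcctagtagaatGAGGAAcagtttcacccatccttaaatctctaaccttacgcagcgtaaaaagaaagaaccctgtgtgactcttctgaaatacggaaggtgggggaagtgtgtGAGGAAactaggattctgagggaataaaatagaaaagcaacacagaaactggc

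In the RefSeq window from 250 bases before to 50 after the start, 9 of the 10 genes had an entry, all but C1qa. GAGGAA stood on either strand in 6 of these 9 (C1qb, C1qc, Vsig4, Cd5l, Marco and Id3), beside 28.3% of all 32851 promoters in the table. The MAF half-site TGCTGA stood in 6 of 9 (C1qb, Clec4f, Vsig4, Timd4, Cd5l and Spic), beside 19.5% of all promoters. The nuclear receptor half-site AGGTCA stood in 3 of 9 (C1qc, Clec4f and Timd4; 16.3% of all promoters), and CAGCTG, an E-box of the factors that ID proteins hold back, in 0 of 9 (16.3% of all). No motif stood in both C1qb and C1qc and in none of Clec4f, Vsig4 and Timd4, and no matches of different motifs overlapped in these windows. Such matches are letters in a window, not sites of binding.

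Cells were grouped in each library by clustering with the 10 genes left out, and clusters were named from markers that are not among them. Macrophage-like clusters, named from 9 markers that include Adgre1, Csf1r, Cd68, Fcgr1, Mertk, Lgmn, Ms4a7 and Mrc1, held 1176 of 16999 analysed cells in NEJ634, 440 of 7754 in NEJ687, 136 of 14046 in NEJ709 and 268 of 12433 in NEJ723. They held 388 of 6716 in NEJ638, 1215 of 7312 in NEJ654 and 661 of 7423 in NEJ677. All 9 markers had UMIs in the macrophage-like cells of each library. The libraries ranged from 40214395 to 132485391 UMIs, and their analysed cells from a median of 2112 to 4626 UMIs. NEJ709 stood apart, with 96.8% of its analysed barcodes in unnamed clusters and no T/NK-like or B-like cells, so its values carry the least weight. Between 1.49% and 4.12% of the analysed cells of a library had a barcode that was also an analysed cell of another library, among them 0 to 32 of its macrophage-like cells. Without them, 69 of the 70 levels given below (10 genes in 7 libraries) stayed within their interval, and the exception was Vsig4 in NEJ723, at 71.7 CPM in place of 84.0.

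Levels are UMIs of a gene per 1000000 UMIs (CPM), summed over the cells of a class in a library, with exact Poisson 95% intervals that cover counting error only. In the macrophage-like cells of every library, all 10 genes but Id3 were at least 7.65 times as high as in the rest of the analysed cells. A gene was called where its level was at least 4 times that in all other analysed cells, among genes of at least 20 CPM in either pool. By this rule 9 of 10 genes were called in 5 libraries: NEJ634 (background, the share of all compared genes called: 4.79%), NEJ709 (11.4%), NEJ638 (6.56%), NEJ654 (3.8%) and NEJ677 (5.61%). In NEJ687 10 of 10 were called (13.1%), and in NEJ723 8 of the 9 genes that reached 20 CPM (12.3%), where Timd4 stood just below the minimum at 19.9 CPM. Outside NEJ687 Id3 was not called, at 1.63 to 3.80 times the level of other cells in 6 libraries and 8.32 times in NEJ687. The macrophage-like cells of NEJ687 had 537 CPM of Id3 and its other cells 64.6 CPM, beside 1615 and 992 CPM in NEJ654. The other cells of NEJ709 and NEJ723 were also low in Id3, at 75.5 and 43.2 CPM, with folds of 3.275 and 2.218. The folds of the other 9 genes ran from 7.65 (Marco) to 9.69 (Vsig4) in NEJ654 and from 52.0 (Spic) to 98.6 (Cd5l) in NEJ687. They were 8.25 to 10.4 in NEJ634, 10.2 to 13.9 in NEJ677, 11.9 to 18.7 in NEJ709, 16.5 to 22.8 in NEJ638 and 40.3 to 60.3 in NEJ723. The ranges of several libraries overlapped. The other cells included unnamed clusters with much C1q, such as 323 cells of NEJ654 with 10099 CPM of the 3 chains together, 269 of NEJ677 with 9688 CPM, 343 of NEJ634 with 6238 CPM and 233 of NEJ638 with 5532 CPM. In NEJ634 and NEJ709 the other cells held more C1q UMIs (44921 and 20740) than the macrophage-like cells did (31598 and 4641).

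**Figure D1:**
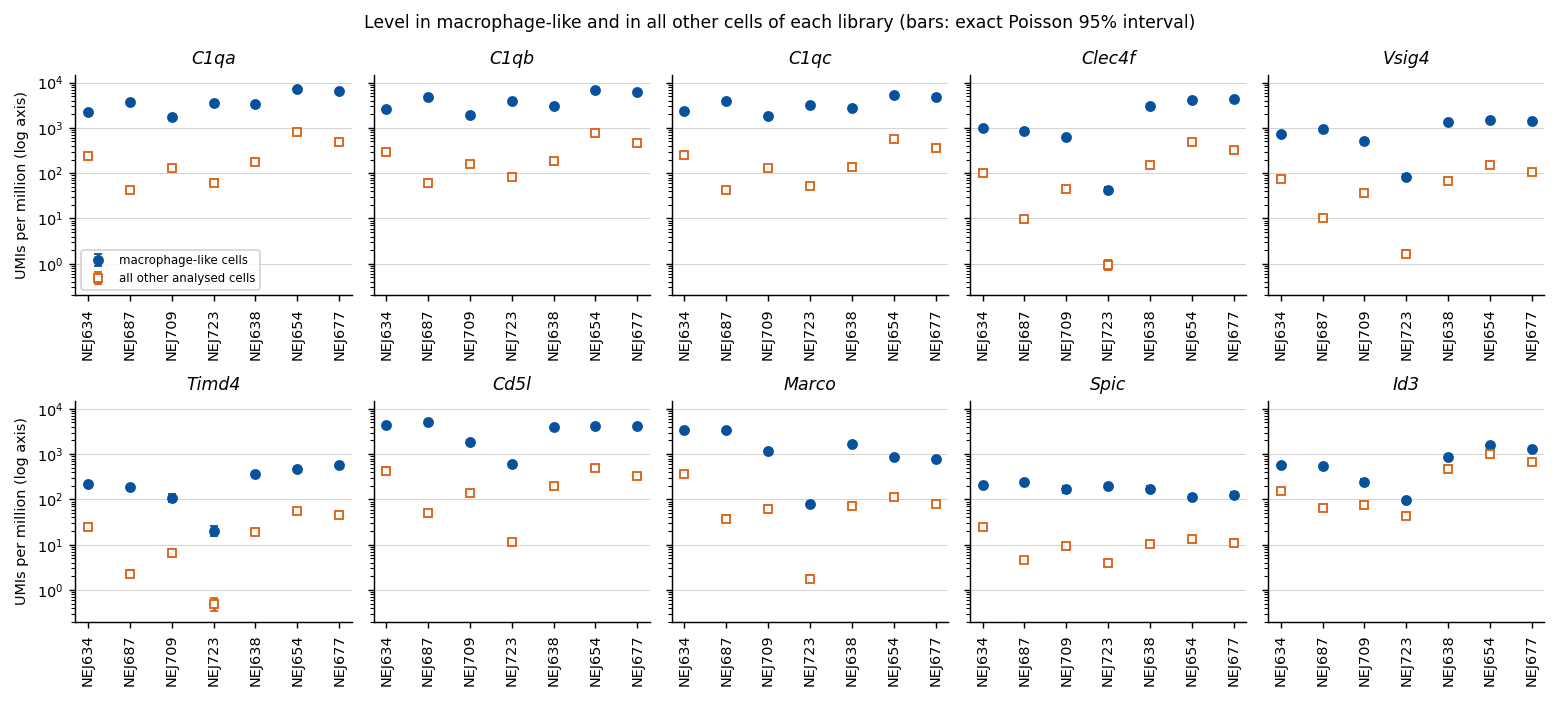
Level of each of the 10 genes, in CPM on a log axis, in macrophage-like cells (filled circles) and in all other analysed cells (open squares) of the 7 libraries, with exact Poisson 95% intervals that are mostly smaller than the symbols. The circles of C1qa, C1qb and C1qc stay within a narrow band across libraries, while those of Clec4f, Vsig4, Timd4 and Marco drop in NEJ723, and in each library the 2 symbols lie closer together for Id3 than for the other genes.

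Among the named classes of at least 50 cells, macrophage-like cells had the highest level of all 10 genes in NEJ634 and NEJ709 and of all but Id3 in the other 5 libraries. NEJ709 had only 2 such classes, the other being erythroid-like. Its smaller endothelial-like (10 cells) and nonclassical monocyte-like (33 cells) classes had 757 and 671 CPM of Id3, above the 247 CPM of its macrophage-like cells. The class with the next highest C1qa was endothelial-like in NEJ634 (382 CPM), NEJ677 (165 CPM) and NEJ687 (186 CPM), hepatocyte-like in NEJ723 (60.5 CPM), and mesenchymal-like in NEJ638 (287 CPM) and NEJ654. In NEJ654 the 150 mesenchymal-like cells had 1984 CPM of C1qa and 1294 CPM of Clec4f beside 7175 and 4190 CPM in macrophage-like cells. All 10 genes had their second highest level in this class there, Id3 after endothelial-like cells and the others after macrophage-like cells. In NEJ677 the mesenchymal-like class fell below the minimum with 49 cells, and had 129 CPM of Timd4 and 26.2 CPM of Spic. Endothelial-like cells of NEJ677 had 13.3 and 2.96 CPM of these. The part of macrophage RNA in the mesenchymal-like cells was not tested.

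**Figure D2:**
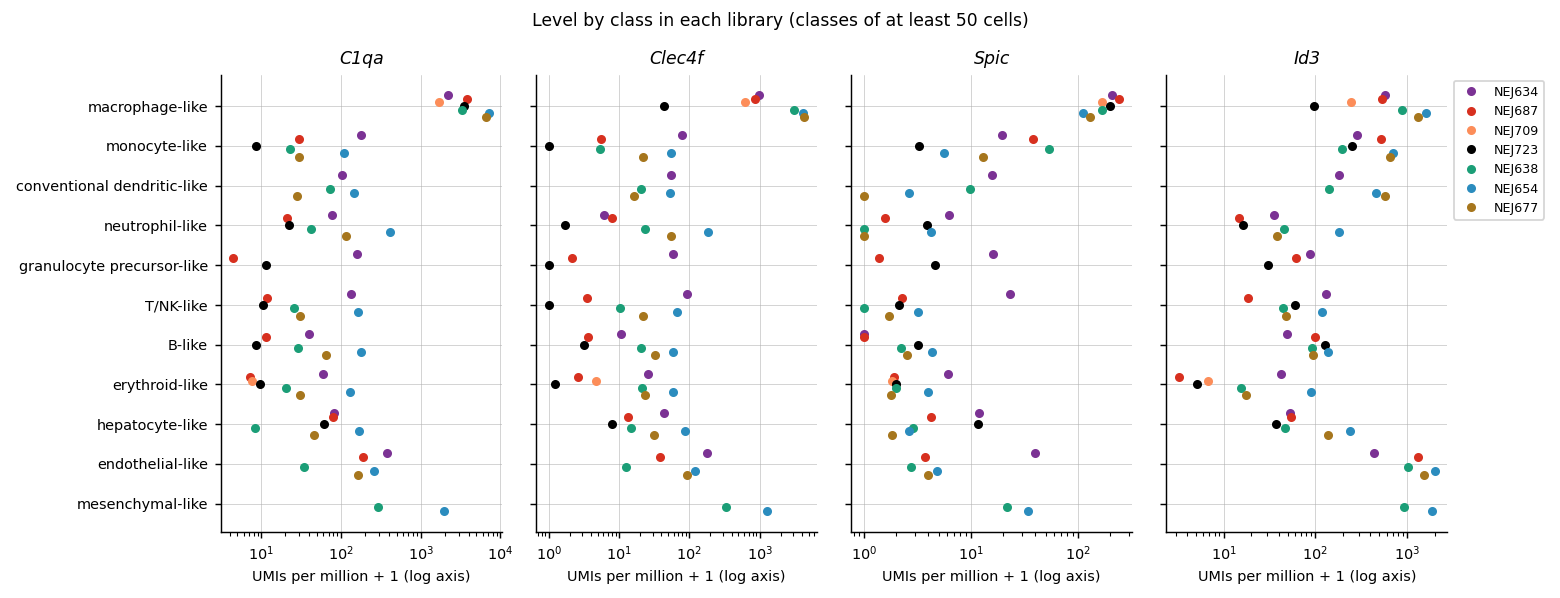
Level of C1qa, Clec4f, Spic and Id3 in each named class of at least 50 cells, in CPM + 1 on a log axis, with 1 point per library. C1qa and Clec4f are highest in macrophage-like cells, although Clec4f of NEJ723 lies at 42.6 CPM, and Id3 is higher in endothelial-like than in macrophage-like cells in 4 of the 5 libraries with both classes.

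The C1q chains were high in the macrophage-like cells of all 7 libraries. C1qa ran from 1712 CPM (1625 to 1802) in NEJ709 over a median of 3483 CPM (3419 to 3548) in NEJ723 to 7175 CPM (7075 to 7276) in NEJ654. C1qb ran from 1907 CPM in NEJ709 over 3854 CPM in NEJ723 to 6723 CPM in NEJ654, and C1qc from 1818 over 3157 to 5247 CPM in the same libraries. The 7 libraries stood in the same order for each chain, NEJ654, NEJ677, NEJ687, NEJ723, NEJ638, NEJ634 and NEJ709, with the highest 4.19 times the lowest for C1qa, 3.53 times for C1qb and 2.89 times for C1qc. Neighbours in this order differed by more than their counting error except NEJ723 and NEJ638 for C1qa (3322 CPM in NEJ638, 3217 to 3430).

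Clec4f, Vsig4 and Timd4 varied more across the libraries than C1q did, for a large part through 1 library, NEJ723. Clec4f stood at 4297 CPM (4212 to 4384) in NEJ677, 4190 CPM (4113 to 4267) in NEJ654 and 3048 CPM (2947 to 3151) in NEJ638. It stood at 981 CPM (952 to 1010) in NEJ634, 866 CPM (830 to 903) in NEJ687, 623 CPM (571 to 679) in NEJ709 and 42.6 CPM (35.8 to 50.4) in NEJ723. NEJ677 and NEJ654 overlapped by counting error, and every other neighbour differed by more than it. The places of NEJ634, NEJ687 and NEJ709 depended on the processing, since Clec4f of NEJ709 ranged from 264 CPM, in cells gated on Adgre1 and Csf1r, to 1091 CPM, with coarser clusters. In NEJ723 it ranged from 29.0 to 87.8 CPM. The highest level was 100.8 times the lowest, and 6.89 times without NEJ723. For Vsig4 the ratio was 17.8 with NEJ723 and 2.92 without it, and for Timd4 28.5 and 5.21, beside 4.19 with or without it for C1qa. C1qa was 1.89 times as high in NEJ677 as in NEJ723, and Spic 0.636 times as high.

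Vsig4 had the same 3 libraries at the top as Clec4f, with NEJ654 and NEJ677 exchanged, and the same library at the bottom. It was 1491, 1402 and 1360 CPM in NEJ654, NEJ677 and NEJ638, which neighbour by neighbour overlapped, then 948, 732 and 511 CPM in NEJ687, NEJ634 and NEJ709, and 84.0 CPM (74.3 to 94.6) in NEJ723. Timd4, the phosphatidylserine receptor, was 568, 467 and 372 CPM in NEJ677, NEJ654 and NEJ638, 220 and 192 CPM in NEJ634 and NEJ687, which overlapped, 109 CPM in NEJ709 and 19.9 CPM (15.3 to 25.4) in NEJ723. NEJ638, NEJ654 and NEJ677 were the 3 highest libraries and NEJ723 the lowest for Clec4f, Vsig4 and Timd4 in all 12 settings of the processing that gave a value for every library.

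Cd5l and Marco, a secreted protein and a scavenger receptor, stood in a different order, which for Cd5l depended on the processing. Its 3 highest libraries were those of the main setting in 4 of 12 settings, the main one included, and those of Marco in 10. Cd5l was 5046 CPM (4958 to 5135) in NEJ687 and 4478 CPM in NEJ634, and 4109, 4097 and 3893 CPM in NEJ677, NEJ654 and NEJ638, of which the first pair overlapped. It was 1891 CPM in NEJ709 and 601 CPM (574 to 628) in NEJ723. Marco was 3419 CPM (3347 to 3492) in NEJ687 and 3372 CPM (3318 to 3427) in NEJ634, which overlapped, and 1632 CPM in NEJ638, 1152 CPM in NEJ709, 850 CPM in NEJ654 and 789 CPM in NEJ677. Marco was thus higher in NEJ687 and NEJ634 than in the 3 libraries with the most Clec4f, Vsig4 and Timd4. In NEJ723 it was 78.1 CPM (68.7 to 88.4), so 4 of these receptors and Cd5l all had their lowest level in this library.

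Spic varied least of the 10 genes over all 7 libraries. It ran from 111 CPM (98.6 to 124) in NEJ654 over a median of 169 CPM (142 to 199) in NEJ709 to 244 CPM (225 to 264) in NEJ687, a ratio of 2.21. Without NEJ709 the ratio was 2.21 for both Spic and C1qc. The 3 libraries highest for Spic were the same in 6 of 12 settings, the main one included, and Spic of NEJ709 ranged from 72.0 to 324 CPM across the 12. NEJ723, lowest for Clec4f, was above the median for Spic at 202 CPM (186 to 218), overlapping NEJ634 and NEJ709. The 2 libraries with the highest C1q, NEJ654 and NEJ677 (128 CPM), had the lowest Spic.

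Id3 was the gene least tied to macrophage-like cells, while across libraries it had the same 3 at the top as Clec4f. In all other analysed cells Id3 was also highest in NEJ654, NEJ677 and NEJ638 (992, 673 and 478 CPM) and lowest in NEJ723 (43.2 CPM). Its level in macrophage-like cells was 1615, 1312 and 879 CPM in NEJ654, NEJ677 and NEJ638, 580 and 537 CPM in NEJ634 and NEJ687, which overlapped, 247 CPM in NEJ709 and 95.8 CPM (85.4 to 107) in NEJ723. Endothelial-like cells, in which BMP signals are known to induce Id genes, were higher in NEJ638 (1022 CPM), NEJ654 (2004 CPM), NEJ677 (1538 CPM) and NEJ687 (1331 CPM). In NEJ723, which had no endothelial-like class, monocyte-like cells were highest at 252 CPM.

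The receptor genes of NEJ723 could also be read without naming any cell, from the barcodes of lower rank by UMIs, taken here as free RNA. In NEJ634 71123 barcodes had at least 500 UMIs, so many of the barcodes in this pool met the minimum for a cell, and how much of it was free RNA was not tested; NEJ634 gave the highest values of Vsig4, Cd5l and Marco below. Per 100 UMIs of the 3 C1q chains, free RNA held 1.87 UMIs of Clec4f in NEJ723 and 6.94 to 23.0 in the other 6 libraries, while macrophage-like cells held 0.406 in NEJ723 and 6.85 to 33.2 in the others. For Vsig4 free RNA held 2.41 in NEJ723 and 5.82 to 13.2 elsewhere, and for Cd5l 12.9 in NEJ723 and 18.9 to 64.8 elsewhere. Timd4 was the exception, with 1 UMI in the free RNA of NEJ709 and a lower value there (0.224) than in NEJ723 (0.513). Marco per 100 C1q UMIs was highest in NEJ634 both in free RNA (51.3) and in macrophage-like cells (47.0), and in NEJ654 it was 4.24 and 4.44. In the free RNA of NEJ723 Marco stood at 8.51 CPM beside 80.1 CPM of C1qa, and in that of NEJ654 at 140 beside 1133 CPM. In macrophage-like cells it stood at 78.1 beside 3483 CPM in NEJ723 and 850 beside 7175 CPM in NEJ654. Against C1qa, Marco of NEJ723 was thus near that of NEJ654 in free RNA and far below it in macrophage-like cells. Clec4f of NEJ723 also lay closer to the other libraries in free RNA than in macrophage-like cells. Spic per 100 C1q UMIs in the macrophage-like cells of NEJ723 (1.92) lay within the range of the others (0.578 to 3.10). Id3 was higher in free RNA, at 12.3 to 24.7, than in macrophage-like cells, at 0.913 to 9.58, in every library.

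The background of these genes was read in cells that should lack them, except for Id3, which 3.77 to 13.4% of B-like cells held at 1000 UMIs a cell. T/NK-like and B-like cells had 7.72 to 178 CPM of C1qa and 0 to 91.4 CPM of Clec4f, with the most C1qa in B-like cells of NEJ654 and the most Clec4f in T/NK-like cells of NEJ634. In NEJ634, 80 of the 713 T/NK-like cells formed a cluster with 2929 CPM of C1q in all, and the part of macrophage RNA in it was not tested.

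Counted per cell, most macrophage-like cells of every library held C1q, while the share with Clec4f, Vsig4 or Timd4 ran from 5.32% to 98.0% between libraries. Each cell was thinned to 1000 UMIs, and shallower cells were left out, which kept 112 (NEJ709) to 1176 (NEJ634) cells. A UMI of a C1q chain was found in 98.1% of them in NEJ634, 99.7% in NEJ687, 85.7% in NEJ709, 97.7% in NEJ723, 99.4% in NEJ638, 100% in NEJ654 (715 of 715) and 99.4% in NEJ677. In T/NK-like cells at the same depth the share with a C1q chain was 3.27% in NEJ687, 3.31% in NEJ723, 6.03% in NEJ638, 11.3% in NEJ677, 27.2% in NEJ634 and 34.7% in NEJ654, so C1q marked the macrophage-like cells far above background in each of these 6 libraries. A UMI of Clec4f, Vsig4 or Timd4 was found in 96.7% (94.1 to 98.3, exact binomial 95% interval) in NEJ638, 98.0% (96.7 to 98.9) in NEJ654 and 97.3% (95.5 to 98.6) in NEJ677. The share was 70.8% (68.1 to 73.4) in NEJ634, 75.3% (70.0 to 80.1) in NEJ687, 43.8% (34.4 to 53.4) in NEJ709 and 5.32% (2.94 to 8.77) in NEJ723. The shares of the first 3 libraries overlapped each other, those of NEJ634 and NEJ687 overlapped, and NEJ709 and NEJ723 stood apart from every other library.

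In T/NK-like cells at the same depth the share with Clec4f, Vsig4 or Timd4 was 0% in NEJ723 (0 of 513, which allows up to 0.585%) and 13.2% in NEJ634, with 1.19 to 7.14% in NEJ638, NEJ654, NEJ677 and NEJ687. Median depths before thinning were 10657 UMIs in macrophage-like and 4772 UMIs in T/NK-like cells of NEJ723, and 2399 and 2324 UMIs in those of NEJ634. Of the macrophage-like cells with C1q, 14 of 257 in NEJ723 also had one of the 3 receptor genes, against 319 of 329 in NEJ638. Cd5l was found in 25.3% of the C1q cells of NEJ723, 60.4% of those of NEJ709 and 93.6 to 97.1% of those of the other 5 libraries. Marco was found in 83.5% of the C1q cells of NEJ634 and 78.6% of those of NEJ687, in 60.8% in NEJ638 and 41.7 to 42.9% in NEJ709, NEJ654 and NEJ677, and in 5.06% in NEJ723. Among T/NK-like cells, 0.585% had Cd5l and 0% had Marco (0 of 513) in NEJ723, and 19.5% and 18.9%, the highest shares, in NEJ634. Without thinning, Clec4f was found in 4.85% of the macrophage-like cells of NEJ723 and 95.4% of those of NEJ638.

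The little Clec4f of NEJ723 lay in few cells. Of its 268 macrophage-like cells, 13 held all 137 UMIs of Clec4f, and 7 of these held 130 of them. In the 13 cells Clec4f stood at 752 CPM and the C1q chains together at 12548 CPM, beside 10370 CPM of C1q in the other cells. Vsig4 was spread alike, with 255 of 270 UMIs in 11 cells, and 19 cells with any. In NEJ677, where Clec4f was highest, 601 of 661 cells held Clec4f at 4441 CPM, and in NEJ687 279 of 440 cells at 1195 CPM. Of the 13 cells of NEJ723, 1 shared its barcode with an analysed cell of another library. Cells picked for a gene are high in it by that choice, so these values are a description.

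**Figure D3:**
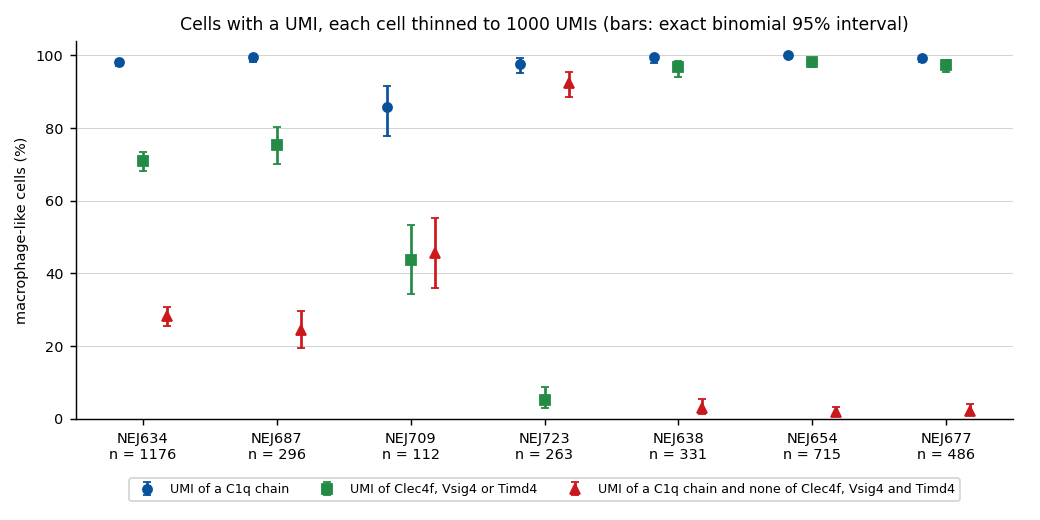
Share of macrophage-like cells, each thinned to 1000 UMIs, with a UMI of a C1q chain (circles), of Clec4f, Vsig4 or Timd4 (squares), and of a C1q chain but none of Clec4f, Vsig4 and Timd4 (triangles), with exact binomial 95% intervals; n is the number of cells deep enough. The squares lie above 96% in NEJ638, NEJ654 and NEJ677, between 43% and 76% in NEJ634, NEJ687 and NEJ709 and at 5.32% in NEJ723, where the triangle lies at 92.4%.

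The macrophage-like cells of NEJ723 fell into 2 clusters with similar C1q, 10971 and 10119 CPM for the 3 chains together, and different levels of Kupffer cell genes. The cluster led by Vcam1 and Fcna (112 cells) had 3794 CPM of C1qa, 95.4 CPM (80.0 to 113) of Clec4f, 189 CPM (167 to 213) of Vsig4, 41.0 CPM of Timd4, 1166 CPM of Cd5l and 358 CPM (327 to 390) of Spic. The cluster led by Spp1 and Gpnmb (156 cells) had 3238 CPM of C1qa, 1.11 CPM (2 UMIs) of Clec4f, 1.67 CPM (3 UMIs) of Vsig4, 3.33 CPM (6 UMIs) of Timd4, 157 CPM of Cd5l and 78.9 CPM (66.5 to 93.0) of Spic. Clec4f, Vsig4, Timd4, Cd5l, Marco and Spic were all higher in the first cluster. Id3 was alike in both, at 98.2 CPM (82.6 to 116) and 93.9 CPM (80.3 to 109). At 1000 UMIs a cell, 0 of 152 cells of the second cluster had Clec4f, which allows up to 1.97%, and 6 of 111 cells of the first.

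NEJ723 also had 4 unnamed clusters, with 737 cells, whose highest score was that of macrophages. One of 385 cells with a median of 1003 UMIs had 6346 CPM of C1q in all, 40.5 CPM of Clec4f and 652 CPM of Cd5l. The other three, of 113, 131 and 108 cells, also carried monocyte markers, with 105 to 232 CPM of Ccr2, and had 2866 to 3888 CPM of C1q and 0 to 20.5 CPM of Clec4f. With these 4 clusters counted as macrophages, Clec4f of NEJ723 was 29.0 CPM, still the lowest of the libraries, and C1qa 2401 CPM.

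Clusters with C1q but little Clec4f were found in other libraries too, and since no cut was set for them, those below are examples. In NEJ709 a macrophage-like cluster of 17 cells led by Ccl7 and Cx3cr1 had 5233 CPM of C1q, 78.1 CPM of Clec4f and 987 CPM of Spp1. In NEJ634 an unnamed cluster of 42 cells led by Spp1, whose highest score was that of endothelial cells, had 2681 CPM of C1q, 11.97 CPM of Clec4f and 59.8 CPM of Cd5l, beside 3649 to 8651 CPM of C1q and 432 to 1257 CPM of Clec4f in its 5 macrophage-like clusters. Another of its unnamed clusters, of 17 cells, was led by Spp1 too and had 2067 CPM of C1q and 89.9 CPM of Clec4f. A larger one, of 178 cells led by F13a1, whose highest score was that of monocytes, had 835 CPM of C1q and 13.4 CPM of Clec4f. Its C1qa, C1qb and C1qc were 278, 360 and 197 CPM, beside 219, 284 and 233 CPM in the free RNA of NEJ634. Clec4f was 129 CPM in that free RNA. In NEJ638, NEJ654, NEJ677 and NEJ687 each macrophage-like cluster had at least 475 CPM of Clec4f.

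**Figure D4:**
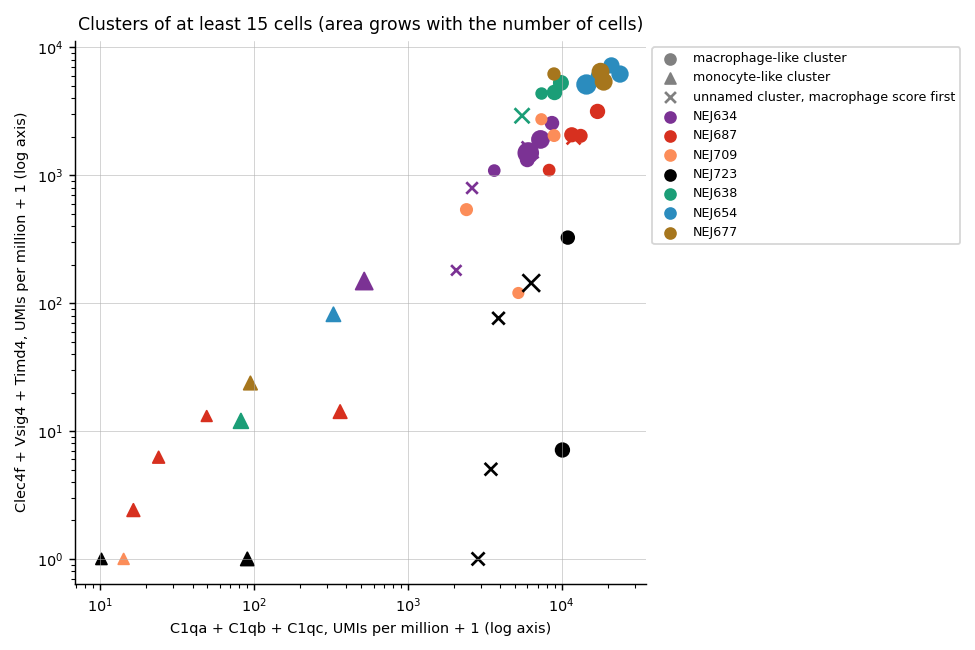
Clusters of at least 15 cells that were macrophage-like (circles), monocyte-like (triangles) or unnamed with macrophage as the highest score (crosses), by the summed level of C1qa, C1qb and C1qc and that of Clec4f, Vsig4 and Timd4, both in CPM + 1 on log axes, with 1 colour per library. Most macrophage-like clusters lie at the top right, those of NEJ723 lie at the same C1q but lower on the other axis, and monocyte-like clusters lie at the bottom left.

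Monocyte-like cells, named from Ly6c2, Ccr2 and other markers, had little of most of these genes. C1qa was 5.31 CPM in NEJ709 (2 UMIs, 31 cells), 7.62 to 28.8 CPM in NEJ638, NEJ677, NEJ687 and NEJ723, 107 CPM in NEJ654 and 177 CPM in NEJ634, beside 9.38 to 163 CPM in T/NK-like cells of the 6 libraries that had them. C1qb was above the T/NK-like and B-like cells beyond counting error in NEJ687 (56.7 CPM, 47.6 to 67.0, against 19.8 and 13.2 CPM) and NEJ723 (44.9 CPM, 34.2 to 58.0, against 12.01 and 15.4 CPM). In NEJ723 C1qa (7.62 CPM) and C1qc (10.7 CPM) overlapped both. Spic, the iron-recycling factor, was above both in NEJ638 (52.9 CPM, 33.9 to 78.6, against 0 and 1.22 CPM), NEJ687 (37.4 CPM, 30.1 to 45.9, against 1.28 and 0 CPM) and NEJ677 (12.1 CPM, 5.24 to 23.9, against 0.735 and 1.54 CPM). In NEJ687 both genes were concentrated in 1 of 4 monocyte-like clusters, of 146 cells, with 147 CPM of Spic and 193 CPM of C1qb beside 0 to 2.82 CPM and 9.87 to 12.6 CPM in the other three. That cluster also had 145 CPM of Marco and 49.5 CPM of Cd5l, beside 0 to 12.7 and 5.25 to 12.1 CPM in the others. Its Clec4f was 9.90 CPM. C1qb of NEJ723 was 64.8 CPM in 1 of its 2 monocyte-like clusters and 4.62 CPM in the other. Clec4f had 0 UMIs in the monocyte-like cells of NEJ723, which allows up to 2.29 CPM.

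The chains of C1q kept nearly equal proportions. Counted as UMIs of 3′ ends, C1qa made up 30.1 to 37.5% of the UMIs of the 3 chains in macrophage-like cells, C1qb 33.2 to 38.5% and C1qc 27.4 to 33.4%. NEJ638, NEJ654 and NEJ677 had 36.2% (35.3 to 37.1), 37.5% (37.1 to 37.9) and 37.1% (36.6 to 37.6) C1qa, and NEJ634, NEJ687, NEJ709 and NEJ723 had 30.5%, 30.1%, 31.5% and 33.2% (32.7 to 33.7). In the monocyte-like cells of NEJ723 C1qb took a larger share, at 71.1% (60.1 to 80.5, 59 of 83 UMIs), beside 36.7% in its macrophage-like cells and 41.1% (33.0 to 49.5) in its T/NK-like and B-like cells. It was 48.3 to 54.1% in NEJ638, NEJ654, NEJ677 and NEJ687, where the intervals overlapped those of T/NK-like and B-like cells. Macrophage-like cells of these libraries had a lower share of C1qb, at 33.2 to 38.5%, with intervals that did not overlap those of monocyte-like cells. In NEJ634, where monocyte-like cells had the most C1q, the share of C1qb was 39.3% (34.8 to 44.0), overlapping T/NK-like and B-like cells at 37.1% and macrophage-like cells at 36.3%. In NEJ709 it was 1 of 5 UMIs.

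Across 66 pools of a class in a library with at least 50 cells, the genes whose level was most like that of a C1q chain were the other 2 chains, with Pearson's r of 0.978 to 0.986 on log2(CPM + 10), and then Fcna, the secreted lectin ficolin A. Clec4f was most like Folr2 (r = 0.97), a folate receptor, then Vsig4 and Fcna. Timd4 was most like Folr2 (0.954), Clec4f and C6, a late complement component, Vsig4 like Fcna (0.971), Cd5l and Clec4f, and Cd5l like Vsig4 (0.968), C1qc and Fcna. Marco was most like Cd5l (0.93), Vsig4 and Ccdc148. Spic was most like Adgre1 (0.925), 1700003F12Rik and Epb41l3, and Id3 like Cmtm3 (0.87), Tmem109 and Fcgrt. Pools of 1 library share its free RNA and depth, and 8700 genes were ranked, so these values describe likeness only.

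Genes that work with C1q were called in both directions. Among 12 genes of the classical cascade, its inhibitor and its receptors, 5 to 11 reached the minimum, 1 to 3 were called higher and 0 to 4 lower, and the median log2 fold ran from -0.06 to 1.10, beside -0.09 to 0.67 over all compared genes. Of all compared genes, 3.8 to 13.1% were called higher in a library. Of these genes, 5.25% were at least 4 times lower in macrophage-like cells in NEJ634, 6.09% in NEJ687, 1.13% in NEJ709 and 6.8% in NEJ723. The shares for NEJ638, NEJ654 and NEJ677 were 13.5%, 10.4% and 12.3%. C3ar1, a receptor for a C3 fragment, was higher in all 7 libraries (41.5 to 196 CPM). C2, a protease of the cascade, was higher in 5 libraries, and was 6.53 CPM and not called in NEJ723. C3, made mainly by hepatocytes, was lower in 4 libraries, and C1ra, a protease bound to C1q, was called in no library, at 3.52 to 18.8 CPM.

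Genes for Kupffer cell transcription factors and for iron had higher medians. Over all compared genes, 3.8 to 13.1% were called higher in a library and 1.13 to 13.5% lower. Of 10 transcription factors, of which 1 was also a naming marker, 2 to 7 were called higher and 0 lower, with a median log2 fold of 1.26 to 2.60. Nr1h3, which encodes the oxysterol receptor LXRα, was higher in all 7, at 442, 302 and 343 CPM in NEJ638, NEJ654 and NEJ677, 231 and 306 CPM in NEJ634 and NEJ687, 110 CPM in NEJ709 and 87.1 CPM in NEJ723. Of 10 genes of haem and iron handling 3 to 6 were higher and 0 lower (median 1.54 to 2.09). Slc40a1, the iron exporter ferroportin, Slc11a1 and Cd163, the haemoglobin scavenger receptor, were higher in all 7, and Cd163 was 243 to 303 CPM in NEJ638, NEJ654 and NEJ677 and 28.3 to 78.5 CPM in the other four.

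Of 10 phagocytic and scavenger receptors, of which 3 (Mertk, Mrc1 and Fcgr1) were also naming markers and so helped to choose the cells, 4 to 8 were higher and 0 to 2 lower (median 1.04 to 5.08), beside 3.8 to 13.1% and 1.13 to 13.5% of all compared genes, with Axl, which was not a naming marker, higher in all 7. Folr2 was 1260 CPM in NEJ654, 1038 CPM in NEJ677 and 704 CPM in NEJ638, 216 CPM in NEJ634, 154 CPM in NEJ687, 87.9 CPM in NEJ709 and 16.5 CPM in NEJ723. It took the order of Clec4f but for NEJ654 and NEJ677, which changed places. Of 12 niche signals and receptors, 4 to 9 reached the minimum, 1 to 3 were higher and 0 to 4 lower (median -1.80 to 2.18), beside the same shares of all compared genes. Csf1r, again a naming marker, was higher in all 7, and Csf1 and Dll4, signals that endothelial and mesenchymal cells send to Kupffer cells, were lower in NEJ638, NEJ654 and NEJ677. These folds are against all other analysed cells. Endothelial-like cells were 26 to 32% of the analysed cells of these libraries, 11.2% of those of NEJ634 and 1.38% of those of NEJ687. The part of this in the folds of Csf1 and Dll4 was not tested.

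The median fold of lipid-associated macrophage genes was highest in NEJ723, where Clec4f, Vsig4 and Timd4 were lowest, and below 0 on the log2 scale in the 3 libraries where those were highest. Marco did not share this pattern, being highest in NEJ687 and NEJ634. The list was chosen with earlier results of these data known, and its folds are against all other analysed cells, whose make-up differed between libraries. Endothelial-like cells were 26 to 32% of the analysed cells of NEJ638, NEJ654 and NEJ677. They were 11.2% of those of NEJ634, 1.38% of those of NEJ687 and 0.0712% of those of NEJ709. NEJ723 had no endothelial-like class and 51.7% erythroid-like cells. The part of this in the folds was not tested. Of 9 genes, 8 were higher and 0 lower in NEJ723 (median log2 fold 4.07, all compared genes 0.36, of which 12.3% were called higher and 6.8% lower), 3 to 5 higher and 0 or 1 lower in NEJ634, NEJ687 and NEJ709 (1.36 to 2.50), and 1 to 3 higher and 4 or 5 lower in NEJ638, NEJ654 and NEJ677 (-2.86 to -1.88). Of all compared genes, 4.79 to 13.1% were called higher and 1.13 to 6.09% lower in the second of these sets, and 3.8 to 6.56% higher and 10.4 to 13.5% lower in the third. Spp1, which encodes osteopontin, was 2868 CPM in NEJ723, 312 CPM in NEJ709, 50.2 CPM in NEJ634 and 13.2 CPM in NEJ687, and 0 to 1.34 CPM in the other three. Gpnmb was 501 CPM in NEJ723, 105 to 137 CPM in NEJ634, NEJ687 and NEJ709, and 0 to 1.77 CPM in the other three. In NEJ723 both lay mostly in 1 of its 2 macrophage-like clusters, the one led by these genes, with 5103 CPM of Spp1 and 854 CPM of Gpnmb beside 25.4 and 52.3 CPM in the cluster led by Vcam1 and Fcna. Spp1 of NEJ709 lay mostly in its macrophage-like cluster of 17 cells led by Ccl7 and Cx3cr1. It was 987 CPM there and 96.2, 9.98 and 0 CPM in the other macrophage-like clusters of NEJ709. Trem2, a lipid receptor, was 758 CPM in NEJ723, 174 to 219 CPM and 31.8 to 62.3 CPM in the same sets, and Cd63 and Fabp5 took the same order. Lpl, higher in all 7 libraries, did not: it was 418 CPM in NEJ723 and 432 to 903 CPM elsewhere.

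**Figure D5:**
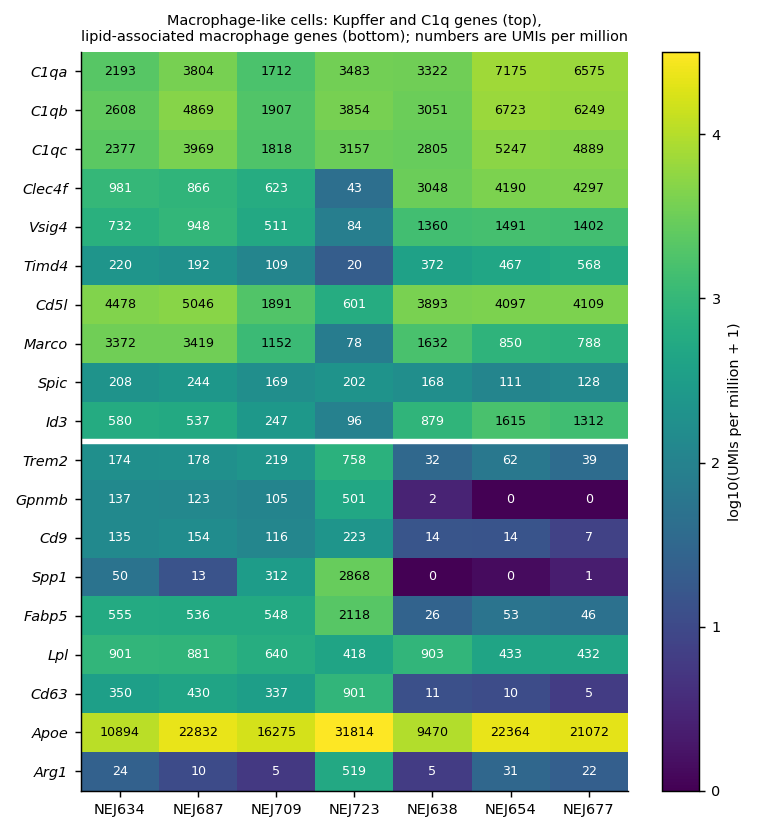
Level in macrophage-like cells of the 10 C1q and Kupffer cell genes (above the line) and of 9 lipid-associated macrophage genes (below), by library; colour is log10(CPM + 1) and the numbers are CPM. In NEJ723 Clec4f, Vsig4, Timd4 and Marco are lowest and Spp1, Gpnmb, Trem2, Fabp5 and Cd63 highest, while C1qa, C1qb and C1qc lie among those of the other libraries.

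Markers of other cells were present in the macrophage-like cells and differed between the libraries. All 9 hepatocyte markers had UMIs in each library, with a summed level of 464 CPM in NEJ723 to 4341 CPM in NEJ654. The 10 erythroid markers, of which 5 to 10 had UMIs, summed to 1006 CPM in NEJ638 and to 86766 CPM in NEJ709, and the 8 neutrophil markers to 61.6 CPM in NEJ677 and 10277 CPM in NEJ709. The 8 endothelial markers, all with UMIs, summed to 107 CPM in NEJ723 and 791 CPM in NEJ677, and the 7 monocyte markers to 171 CPM in NEJ687 and 1195 CPM in NEJ709. The part of these cells in the levels above was not tested. With haemoglobin and mitochondrial UMIs left out of the total, Clec4f was 44.6 CPM in NEJ723 and 3244 CPM in NEJ638.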

How the data were processed

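Single cells of mouse liver were captured with the 10x Genomics 3′ kit, and the authors aligned and counted the reads with Cell Ranger. The file headers name Cell Ranger 4 and the submitters' processing notes Cell Ranger 6.0, so the version is unsettled, and the genome build is not given in the sources used here. The deposited values are unfiltered UMI counts per gene and barcode, not normalized, for 7 libraries.

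Barcodes of at least 500 UMIs were called as cells where they differed from the library's free RNA (the barcodes ranked after 45000 and up to 90000 by UMIs) at a false discovery rate of 0.01. At most 20000 barcodes below the knee were tested in a library, a limit that NEJ634, NEJ709 and NEJ723 reached. Cells with over 20% mitochondrial UMIs were left out. Scrublet's own threshold marked 0 to 4 cells in 6 libraries, so the cells with the highest scores were removed as doublets, at 0.8% per 1000 cells. Cells were clustered in each library (scanpy 1.11.5, Leiden resolution 1, the 10 genes left out of the variable genes), and clusters scoring for macrophages or monocytes were clustered again. A cluster was named where its markers were on average at least 1.5 log2 units above the median of the other clusters and 1 unit above the next class. At least 3 of the markers had to be 2-fold above that median and at 10 CPM or more. A cluster far shallower than its library's median cell stayed unnamed when its leading genes held no marker of the class. So did a cluster whose leading genes held more markers of another class. The naming rule, the doublet rule and the 2 added settings (all libraries clustered together, and unnamed clusters with macrophage as the highest score added) were chosen after seeing the data, and so were the cluster-leading genes that are named. The 10 genes and the gene lists were chosen with earlier results of these data known. Other genes named come from 6 fixed lists, whose remaining genes enter the counts alone, and, for each of the 10 genes, are the 3 with the most similar pattern. The values of 1 further gene are not reported here.

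Counts were summed over cells and given per 1000000 UMIs (CPM), with exact Poisson intervals, and shares of cells with exact binomial (Clopper-Pearson) intervals. Both are 95% intervals and cover counting error only. A level or share of 0 is given with the limit that 3 counts allow. Since the labels put no library in a group, none were treated as replicates of a condition, and no test was made. Calculations used numpy 2.4.6, scipy 1.17.1 and pandas 2.3.3.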

Additional observations from a re-analysis of the deposited data

How the results depend on the processing

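The number of the 10 genes called in macrophage-like cells, and the number with their highest level there, lay between 8 and 10 in each library under every alternative that gave a value but 1. With a minimum of 50 CPM, 7 were called in NEJ723, where Clec4f and Timd4 then stood below it. The alternatives were other rules for calling cells, 10% as the mitochondrial limit, no doublet removal, Leiden resolutions of 0.5 and 2, other CPM minimums, a gate on Adgre1 and Csf1r, other totals, a mean over cells, background subtraction, shared barcodes left out, libraries clustered together and unnamed clusters added. Among the alternatives that gave a value, the number of macrophage-like cells ran from 98 to 1005 in NEJ723 and from 27 to 254 in NEJ709. It ran from 160 to 1600 in NEJ634 and from 292 to 621 in NEJ638. The levels themselves depended more on these choices than the numbers of genes did. Of 70 levels, 69 moved beyond their counting interval with the gate on a UMI of Adgre1 and of Csf1r, 49 with barcodes above the knee only, 50 as a mean over cells and 1 with shared barcodes left out. Clec4f of NEJ723 ranged from 29.0 to 87.8 CPM and that of NEJ709 from 264 to 1091 CPM. Of the 12 settings with a value for every library, 1 is the main setting itself. NEJ723 had the lowest Clec4f, Vsig4, Timd4, Cd5l, Marco and Id3 in 12 of 12 settings, and the lowest C1qa, C1qb, C1qc or Spic in 0 of 12. The same 3 libraries were highest in 12 of 12 settings for C1qb, C1qc, Clec4f, Vsig4, Timd4 and Id3, in 11 for C1qa, in 10 for Marco, in 6 for Spic and in 4 for Cd5l. Shares of cells moved in 59 of 70 cases without thinning and in 63 of 70 at 500 UMIs. Background could not be subtracted in NEJ709, which had no T/NK-like or B-like cells, and clustering all libraries together left 0 to 2 macrophage-like cells in NEJ634, NEJ687, NEJ709 and NEJ723, for which no value is given. No paired analysis was possible because the labels put no library in a group.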
